A study of Mus musculus with 4 samples.

Results

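The transcripts of 9 genes that write, read or erase N6-methyladenosine (m6A) were followed in single cells of the postnatal day 15 (P15) mouse testis. They were picked by gene symbol, 9 of the 32285 genes in the count matrices: the writers *Mettl3*, *Mettl14* and *Wtap*, the readers *Ythdc1*, *Ythdf1*, *Ythdf2* and *Ythdf3*, and the erasers *Alkbh5* and *Fto*. The 4 libraries were from C57BL/6N pups, 2 wild-type and 2 *Meioc*-null, with 1 testis per pup, in 2 batches that each held a littermate pair. The null pups carried the tm1.1Dpc allele of *Meioc*, a gene that promotes the progression of male germ cells into meiotic prophase, and pups of both genotypes were also heterozygous for the tm1Dix allele of *Hspa2* and homozygous for a ROSA26-tdTomato reporter whose floxed stop was intact. The comparison asked at which stage of spermatogenesis, and in which direction, the abundance of these transcripts depended on MEIOC. During dissociation the supernatant with interstitial tissue was discarded, so Leydig cells and other interstitial types are only partly represented.

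m6A is a methyl mark on adenosines within mRNA. METTL3 is the methyltransferase that places it, METTL14 is the partner that binds the RNA in the same complex, and WTAP is the adaptor that holds the complex together in the nucleus. YTHDC1 reads the mark in the nucleus, where it takes part in splicing and export, and the related proteins YTHDF1, YTHDF2 and YTHDF3 read it in the cytoplasm, where YTHDF2 recruits mRNA decay factors. ALKBH5 and FTO are demethylases. In the mouse testis METTL3, METTL14 and ALKBH5 are known to be needed for normal spermatogenesis, and YTHDC2, a further YTH protein, is the partner of MEIOC.

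Barcodes with more than 1000 detected genes and less than 10% mitochondrial UMIs were kept, and after removal of likely doublets the 2 wild-type libraries held 5644 and 7505 cells and the 2 *Meioc*-null libraries 6554 and 6522. Median depth per cell was between 11698.5 and 14446 UMIs, and any 2 libraries shared 12 to 16 cell barcodes. Wild-type germ cells fell into 10 clusters in 1 linear order, each named from fixed markers: cluster 1 was undifferentiated spermatogonia-like, clusters 2 to 6 were differentiating spermatogonia-like, clusters 7 to 9 were early spermatocyte-like and cluster 10 was pachytene spermatocyte-like. Cells of all libraries then took the cluster of their nearest wild-type cells, so *Meioc*-null cells with no wild-type counterpart were still given a wild-type cluster. The study set apart a mutant-only cluster of *Meioc*-null spermatocytes, mainly in G2/M phase, which has no equivalent here. Cluster 10 held 258 and 304 wild-type cells and no *Meioc*-null cell, and cluster 9 held 274 and 677 wild-type cells against 65 and 95 *Meioc*-null cells. A further cluster, with 465 wild-type cells, a median of 2934 UMIs and *Uchl1* and *Crabp1* as leading genes, was left unnamed. Its cells are in the cell totals and in the values over all kept cells, and in no result by cluster. Abundance is given as UMIs of a gene per 1000000 UMIs of all genes in that cluster and library (CPM). Because libraries were 3′ tag libraries, the levels of different genes were not ranked against each other.

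*Meioc* was still counted in null cells. Over all kept cells wild-type pups had 253 and 254 CPM, while the null pups had 297 and 235 CPM. Within clusters it was called in cluster 8, where it was higher in null cells (mean 801 CPM, against 503 CPM for wild-type cells, edgeR adjusted p = 0.000107), and in the stage difference described further on (-0.42, adjusted p = 0.000229). The litter-paired fit also called it in clusters 3 and 4, where it was higher in wild-type cells (means of 76.8 against 51.9 CPM and of 194 against 153 CPM). The labels were therefore not checked by the targeted gene, because the sources used here do not give the deleted part of *Meioc*.

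Positions are those of GRCm38 with the GENCODE vM21 annotation. *Ythdf2* is at chr4:132184912-132212303 on the minus strand and *Alkbh5* at chr11:60536381-60558512 on the plus strand, and neither overlaps another annotated gene. *Fto* spans chr8:91313525-91668439 on the plus strand and overlaps 8 other annotated genes, 4 of them on its own strand, so its counts may share reads with them. *Mettl3*, at chr14:52294841-52305128 on the minus strand, overlaps *Tox4* on the opposite strand. *Mettl14* is at chr3:123368297-123386108, *Wtap* at chr17:12966796-12994169, *Ythdc1*, which overlaps the lincRNA *Gm43055* on the same strand, at chr5:86804221-86836659, *Ythdf1* at chr2:180904377-180920949 and *Ythdf3* at chr3:16183212-16217037.

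RefSeq promoter windows (GRCm38.p6, from 250 bases before to 50 after the annotated start) were matched for 7 of the 9 members. *Mettl14* and *Ythdf3* had none. The 3 windows shown are those of the reader with the widest course over the stages and of both erasers, whose highest means were in different clusters. The strand is minus for *Ythdf2* (chr4:132212207-132212506) and plus for *Alkbh5* (chr11:60537433-60537732) and *Fto* (chr8:91313275-91313574), and capitals mark a motif match.
*Ythdf2*: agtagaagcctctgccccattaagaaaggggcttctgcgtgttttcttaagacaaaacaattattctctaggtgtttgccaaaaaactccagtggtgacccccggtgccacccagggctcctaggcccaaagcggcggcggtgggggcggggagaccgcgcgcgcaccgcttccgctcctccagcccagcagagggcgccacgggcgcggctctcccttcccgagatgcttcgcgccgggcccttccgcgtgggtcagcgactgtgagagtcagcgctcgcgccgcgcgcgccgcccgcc
*Alkbh5*: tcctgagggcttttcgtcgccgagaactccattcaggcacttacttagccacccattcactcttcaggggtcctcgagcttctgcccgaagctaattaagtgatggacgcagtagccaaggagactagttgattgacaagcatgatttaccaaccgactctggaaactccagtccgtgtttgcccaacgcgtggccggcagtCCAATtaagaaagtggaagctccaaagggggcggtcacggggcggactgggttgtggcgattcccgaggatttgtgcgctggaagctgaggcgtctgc
*Fto*: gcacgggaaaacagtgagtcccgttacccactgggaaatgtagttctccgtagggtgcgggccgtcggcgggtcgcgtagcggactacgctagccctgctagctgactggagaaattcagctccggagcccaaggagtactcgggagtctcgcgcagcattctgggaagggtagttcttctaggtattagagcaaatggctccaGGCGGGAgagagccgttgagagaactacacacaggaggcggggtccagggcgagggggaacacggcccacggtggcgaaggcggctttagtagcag
Both strands were searched for 7 motifs: the E-box CACGTG, the E2F-type letters GGCGGGA and GCGCGAAA, the CCAAT box CCAAT, the ETS-type letters CGGAAGT, TCGCGAGA, and the ZNF143-type motif. The capitals in the *Alkbh5* window are a CCAAT box, held by 37.4% of all 32851 windows, and those in the *Fto* window are GGCGGGA, held by 11.3%. The *Ythdf2* window held none of the 7. The E-box, found in 7.15% of all windows, was present in the *Ythdf1* window alone among the members, and GCGCGAAA, found in 0.323%, was present in those of *Ythdc1* and *Ythdf1*. GGCGGGA was also in the windows of *Ythdc1* and *Ythdf1*, and the CCAAT box in that of *Ythdf1*. *Wtap* had more than 1 window, and the CCAAT box was in each except that at chr17:12992210-12992509. CGGAAGT (6.42% of windows) was in the window of *Mettl3*, and TCGCGAGA and the ZNF143-type motif (0.995% and 0.286%) were in no member's. These matches describe letters and not bound sites.

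In wild-type germ cells, all 9 members were detected in every cluster, and each had its own course from spermatogonia to spermatocytes. The log2 difference between the highest and the lowest cluster mean was over 1, that is over 2-fold, for 7 of the 9, against 93.8% of 10332 genes, those that 25% or more of the wild-type cells of some germ-cell cluster held a UMI of. The median of this range was 1.35 for the members and 2.42 for those genes. These stage values are descriptions without a test, since the clusters were built from the same cells.

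**Figure D1:**
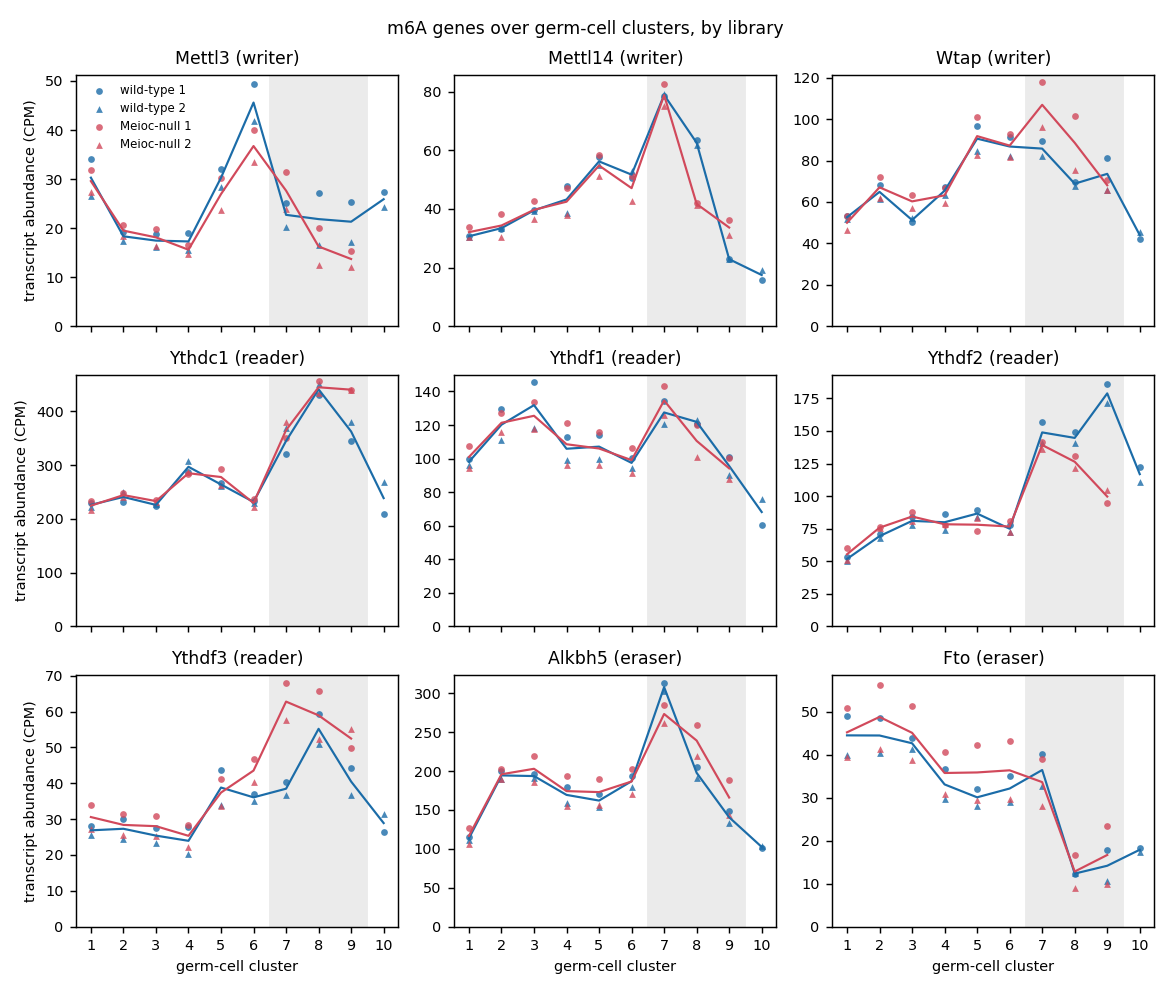
Transcript abundance in CPM (linear axes from 0) of each member in germ-cell clusters 1 to 10. Points are single libraries, lines are means of the 2 libraries per genotype, and the grey band marks the early spermatocyte-like clusters 7 to 9. *Ythdf2* climbs to 186 and 171 CPM in wild-type cluster 9 while both *Meioc*-null libraries come down to 94.96 and 104 CPM there, and *Fto* drops to between 8.96 and 16.7 CPM in cluster 8 in every library. Null cells placed in cluster 9 differed from its wild-type cells in stage markers.

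Among the writers, *Mettl14* had the widest course in CPM. It was 30.9 and 30.4 CPM in the wild-type libraries of cluster 1, 78.4 and 79.4 CPM in cluster 7, 63.4 and 61.8 CPM in cluster 8, and 15.7 and 19.2 CPM in cluster 10, a 4.52-fold span between cluster 7 and cluster 10. The wild-type libraries did not overlap between neighbouring clusters in 8 of the 9 steps, 4 of them up and 4 down, and the last 3 were all down. Of all 10332 genes, between 52.6% and 78.3% did not overlap at a given step, so this count is not read as particular to *Mettl14*. *Mettl3* did not share the course of *Mettl14*: it was 34.1 and 26.5 CPM in cluster 1, 19.0 and 15.6 CPM in cluster 4 and 49.4 and 41.8 CPM in cluster 6. From there it came down to 25.2 and 20.2 CPM in cluster 7. The wild-type libraries of clusters 7 to 10 overlapped at every step for *Mettl3*, so no order is read among them. *Wtap* stood at 53.3 and 51.9 CPM in cluster 1 and at 96.5 and 84.7 CPM in cluster 5. It was down to 42.3 and 45.7 CPM in cluster 10, and its wild-type libraries overlapped from cluster 5 to cluster 7.

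Among the readers, *Ythdf2* changed most. Its wild-type libraries were at 53.4 and 50.1 CPM in cluster 1, at 77.7 and 72.2 CPM in cluster 6, at 157 and 141 CPM in cluster 7, at 186 and 171 CPM in cluster 9, and at 122 and 111 CPM in cluster 10. The step from cluster 6 to 7 was the largest of its 4 steps up, and the libraries of clusters 7 and 8 overlapped.

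*Ythdc1*, the nuclear reader, was 229 and 223 CPM in cluster 1 and reached 430.3 and 452 CPM in cluster 8. It came back to 209 and 269 CPM in cluster 10. The mean of *Ythdf3* was lowest in cluster 4, at 27.6 and 20.2 CPM, although its libraries overlapped at each step from cluster 1 to 4 and replicate 1 was lowest in cluster 10, at 26.5 CPM. It was highest in cluster 8, at 59.4 and 51.0 CPM. *Ythdf1* spanned 1.93-fold on the mean of the libraries, from 146 and 118 CPM in cluster 3 to 60.6 and 75.7 CPM in cluster 10, and in wild-type replicate 2 taken alone its highest value was in cluster 8, at 123 CPM.

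The erasers had their highest means in different clusters. *Alkbh5* was 116 and 111 CPM in cluster 1, 194 and 179.6 CPM in cluster 6 and 313 and 303 CPM in cluster 7, then fell away at each later cluster to 101.2 and 103.5 CPM in cluster 10, so its peak was in the first of the spermatocyte-like clusters. *Fto* was 49.1 and 40.0 CPM in cluster 1 and 40.2 and 32.7 CPM in cluster 7, and it was 12.3 and 12.4 CPM in cluster 8. The drop between clusters 7 and 8 was the larger of the 2 steps at which its wild-type libraries did not overlap, both of them down, and at the other 7 they overlapped.

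At the step from cluster 6 to cluster 7, the wild-type libraries did not overlap for 6 of the 9 members, against 77.7% of all 10332 genes. *Mettl14*, *Ythdc1*, *Ythdf1*, *Ythdf2* and *Alkbh5* were higher in cluster 7 and *Mettl3* was lower, where 31.4% of genes were higher and 46.3% lower. At the step from cluster 8 to cluster 9 the libraries did not overlap for 6 members, against 75.6% of genes. *Ythdf2* was the one that was higher in cluster 9, while *Mettl14*, *Ythdc1*, *Ythdf1*, *Ythdf3* and *Alkbh5* were lower, where 30.2% of genes were higher and 45.3% lower. At the last step, into the pachytene spermatocyte-like cluster, 7 of the 9 members were lower, none was higher, and *Mettl3* and *Fto* overlapped, against 77.5% of genes that did not overlap in either direction, 35.3% higher and 42.2% lower. As UMIs per cell this step had the other direction, and all 9 members were higher in both wild-type libraries of cluster 10 than in those of cluster 9. Median depth per cell rose at the same step, from 14237 and 13503 UMIs to 46063.5 and 35431.5 UMIs. The share of all genes was not computed on this scale, so the count is not read as a trait of the members.

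CPM measures a transcript's share of the RNA that was counted. Median depth per cell in wild-type libraries of the germ-cell clusters ranged from 9623 UMIs in cluster 8 to 46063.5 in cluster 10. As UMIs per cell, all 9 members spanned over 2-fold. The share of all genes that did so was not computed on this scale, where depth itself varies, so no trait of the members is read from this count. *Fto* then had the widest span, 10.9-fold, from 1.58 and 1.28 UMIs per cell in cluster 2 to 0.138 and 0.125 in cluster 8. *Ythdf2* was highest in cluster 10, at 6.16 and 4.41 UMIs per cell, and not in cluster 9, at 3.30 and 2.63. *Alkbh5* was highest in cluster 2 by this measure, at 6.49 and 5.96 UMIs per cell against 3.72 and 3.29 in cluster 7. Among the writers *Mettl3* then had the widest span, 4.97-fold, against 2.84-fold for *Mettl14*, which was highest in cluster 2 and lowest in cluster 9. Fewer UMIs captured and less RNA in a cell cannot be told apart here.

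The genes whose course was most like a member's were ranked by Pearson's r of log2(CPM + 1) over the 20 combinations of wild-type germ-cell cluster and library, as a description. For *Mettl14* they were *Arhgap12* (r = 0.969), *Ncapg2* (r = 0.968) and *Tipin* (r = 0.966). For *Ythdf2* they were *Orc4* (r = 0.968), *Fbrs* (r = 0.964) and *Suco* (r = 0.964), and for *Fto* they were *Cacna1h* (r = 0.964), *Mrps12* (r = 0.952) and *Endog* (r = 0.951). Among the members themselves the closest pair was *Mettl14* and *Alkbh5*, a writer and an eraser, at r = 0.83, and the most opposed was *Ythdf2* and *Fto*, at r = -0.73.

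In wild-type somatic cells, several m6A genes were far below their germ-cell levels. *Alkbh5* was 37.2 and 38.0 CPM in Sertoli-like cells, 57.2 and 62.2 CPM in peritubular myoid-like cells and 91.4 and 46.3 CPM in a cluster led by *Dcn*, *Mgp* and *Col1a2* that met no marker list, all below its lowest germ-cell value. *Ythdc1*, at 144 and 161 CPM in Sertoli-like cells and 126 and 144 CPM in myoid-like cells, was below every germ-cell cluster too. *Mettl14* was 20.7 and 27.9 CPM in Sertoli-like cells, which falls within its germ-cell range, and 15.3 and 13.4 CPM in myoid-like cells, which falls below it.

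*Fto* and *Ythdf3* differed from the rest. *Fto* was 39.4 and 35.8 CPM in Sertoli-like cells and 49.97 and 48.5 CPM in myoid-like cells, and its mean in myoid-like cells was above the means of all 10 germ-cell clusters, although the libraries overlapped. *Ythdf3* was 49.1 and 44.9 CPM in myoid-like cells, with a mean above those of 9 germ-cell clusters. *Wtap* was 75.2 and 67.3 CPM in Sertoli-like cells, with a mean above 6 of the germ-cell cluster means, and 42.7 and 43.3 CPM in myoid-like cells, with a mean below all of them. The Leydig-like group was too small to rank, with 31 and 50 wild-type cells. Median depth per wild-type cell was 2290.5 and 3596 UMIs in Sertoli-like cells and 9766.5 and 10099 UMIs in myoid-like cells. The Sertoli-like group joined a cluster of 514 wild-type cells with a median of 2168 UMIs and another of 226 with a median of 37145. Its summed levels thus weigh the deeper cells more, whereas detection counts every cell alike. The summed level of the 5 germ-cell markers was 196 to 219 CPM in Sertoli-like and 44.2 to 105 CPM in myoid-like cells, against 1692 to 3857 CPM in germ-cell clusters, and the part of germ-cell RNA in the somatic values was not tested.

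**Figure D2:**
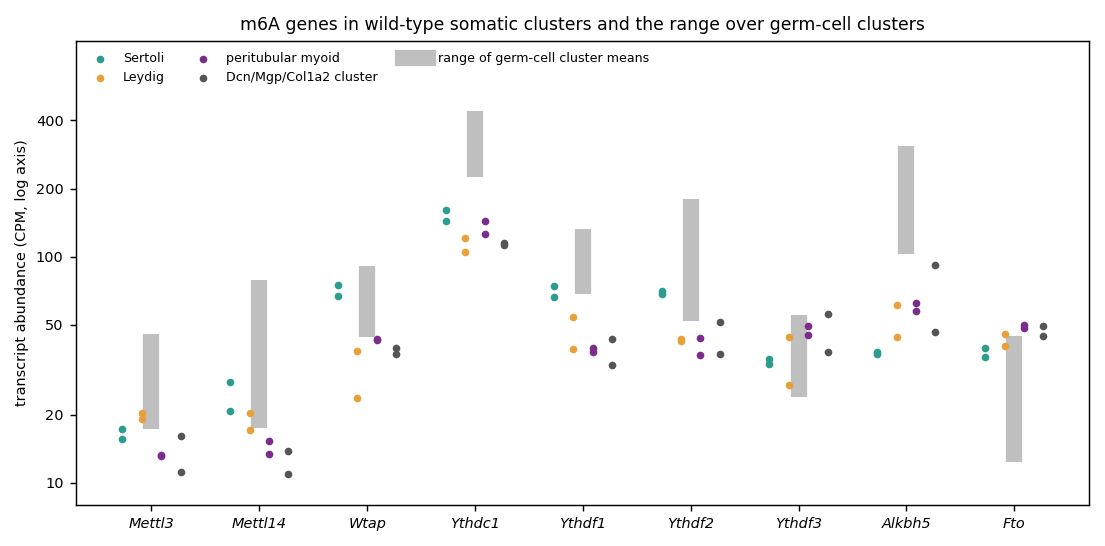
Transcript abundance in CPM (log axis) of each member in the 4 somatic clusters of the wild-type libraries, 2 points per cluster, with a grey bar from the lowest to the highest of the 10 wild-type germ-cell cluster means. *Alkbh5* and *Ythdc1* lie below their bars in every somatic cluster, and *Fto* lies in the upper part of its bar or above it.

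The effect of genotype was tested within each cluster on UMIs summed per library (edgeR, log2 fold change of wild type over *Meioc*-null, called at an adjusted p under 0.05 and an absolute log2 fold change over 0.1). In clusters 1 to 6, named spermatogonia-like, no member was called by genotype. None of the 9 passed in cluster 1 (0% of all tested genes), cluster 2 (0.023%), cluster 3 (0.0256%), cluster 4 (0%), cluster 5 (0%) or cluster 6 (3.92%). In these 6 clusters no member was called by DESeq2 either, and 1 member in 1 cluster, *Mettl3* in cluster 6, had an unadjusted p under 0.05. Across all genes, edgeR called none in clusters 1, 4 and 5. Before adjustment 79 of 8257, 152 of 7227 and 348 of 7039 genes passed 0.05, in each cluster a share no higher than 0.05. DESeq2 called 2, 2 and 4 genes and the litter-paired fit 14, 25 and 223. The main fit had no litter term, while gene-wise differences between litters correlated across genotypes at r = 0.533, 0.538 and 0.655 there. It can thus miss differences that a paired fit calls. The median absolute log2 fold change of the members was at most 0.07 in these clusters.

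Cluster 6 was also the one of these closest to the spermatocyte-like clusters: its leading genes were *Rec8* and *Stra8*, and its summed level of early spermatocyte markers in wild-type libraries was 2079 and 1799 CPM, against 984 and 773 CPM in cluster 5 and 3988 and 3882 CPM in cluster 7. *Mettl3* in cluster 6 was the largest of the differences in these 6 clusters. It was 49.4 and 41.8 CPM in the wild-type and 40.1 and 33.4 CPM in the *Meioc*-null libraries. The groups did not overlap, which in this cluster held for 2 of the 9 members, *Mettl3* and *Ythdf3*. The share over all genes was not computed. The log2 fold change of *Mettl3* was 0.35 ± 0.13 (SE, n = 2 per genotype) with an adjusted p of 0.175, and the litter-paired fit called it (adjusted p = 0.011).

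From cluster 7 on, members were called in both directions. In cluster 7, 1 of 9 was called, lower in wild type, against 33.6% of genes. In cluster 8, 3 of 7 tested were called, 1 higher and 2 lower, against 56.8%. In cluster 9, 2 of 8 tested were called, both higher, against 62.9%. *Mettl3*, 1 of these 2, passed the detection filter there through wild-type cells only, which favours a call in this direction. It was still called with no detection filter. In each of the 3 clusters the members' share of calls was below that of all genes, but it rests on few members and the difference was not tested. The median absolute log2 fold change of the members was 0.19, 0.20 and 0.25 in clusters 7, 8 and 9, and that of all genes tested was 0.24, 0.36 and 0.55. *Fto* in clusters 8 and 9 and *Mettl3* in cluster 8 had a UMI in too few cells to be tested.

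**Figure D3:**
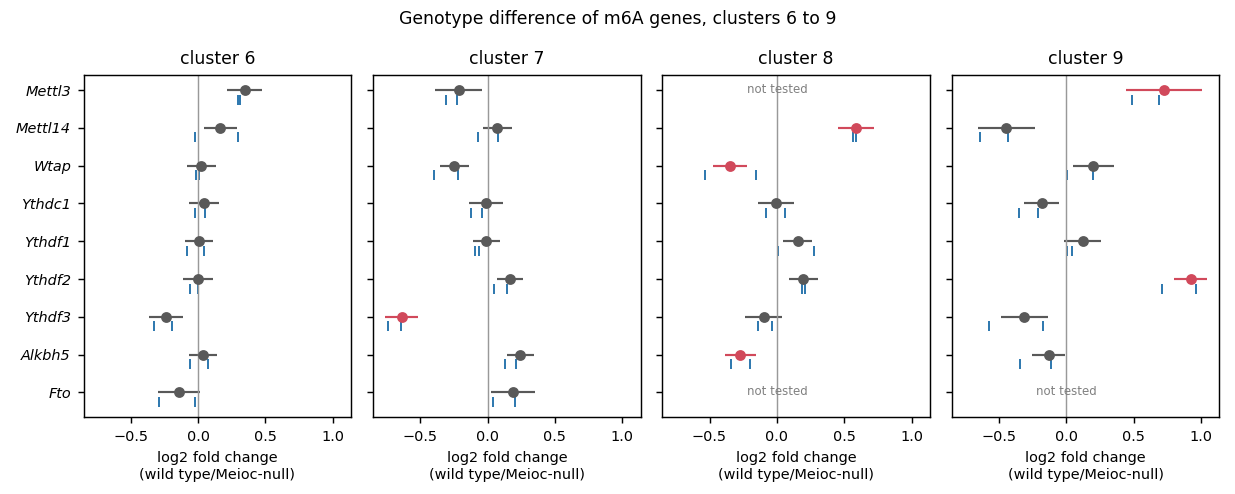
Log2 fold change (wild type over *Meioc*-null, edgeR) of each member in clusters 6 to 9, with bars of 1 SE and red points for called genes. Blue ticks below each point are the log2 ratios of CPM within batch 1 and batch 2. *Ythdf2* in cluster 9 is the farthest right at 0.92 and *Ythdf3* in cluster 7 the farthest left at -0.64.

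The first cluster in which a reader was called was cluster 7, and the reader was *Ythdf3*. In cluster 6 its groups did not overlap either, since wild-type cells had 37.1 and 35.04 CPM but null cells 46.7 and 40.3 CPM, but the difference of -0.24 ± 0.13 was not called (adjusted p = 0.382). In cluster 7 it was 40.2 and 36.7 CPM in the wild-type libraries and 67.8 and 57.7 CPM in the *Meioc*-null libraries. Both null libraries lay above both wild-type libraries, with a log2 fold change of -0.64 ± 0.12 (SE) and an adjusted p of 0.00262. Within batches the log2 ratio was -0.74 and -0.64. In cluster 8 the groups overlapped, with 59.4 and 51.0 CPM for wild type but 65.6 and 52.2 CPM for *Meioc*-null. The wild-type level of *Ythdf3* was thus highest 1 cluster later, whereas the null libraries were already at that height in cluster 7. In cluster 9 wild-type cells had 44.1 and 36.8 CPM and null cells 49.7 and 55.2 CPM, which did not pass (log2 fold change -0.31 ± 0.17, adjusted p = 0.115).

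*Ythdf2* showed the largest genotype difference of any member. In cluster 9 it was 186 and 171 CPM in the wild-type libraries, from 904 and 1778 UMIs, and 94.96 and 104 CPM in the *Meioc*-null libraries, from 105 and 191 UMIs. The groups were far apart, with a log2 fold change of 0.92 ± 0.12 (SE), that is 1.89-fold higher in wild type, and an adjusted p of 2.62e-07, and it was higher in wild type in both litters (log2 ratio 0.97 and 0.71). In cluster 7 the log2 fold change was 0.17 ± 0.09 (adjusted p = 0.200) and in cluster 8 it was 0.20 ± 0.11 (adjusted p = 0.107), neither called. From cluster 8 to cluster 9 both wild-type libraries went up, from 149 and 140 CPM, whereas both null libraries went down, from 131 and 122 CPM. In cluster 6 the null libraries had been at 81.0 and 72.2 CPM. Null cells placed in cluster 9 differed from its wild-type cells in stage markers. Their pachytene marker sum was 207 and 225 CPM against 931 and 803 CPM, and their differentiating spermatogonia sum 1069.8 and 982 against 229 and 215 CPM. The step is thus not read as a course of like cells in both genotypes.

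*Mettl14* and *Mettl3*, the core pair of the methyltransferase complex, were each called once. *Mettl14* in cluster 8 was 63.4 and 61.8 CPM in wild-type cells but 41.9 and 41.5 CPM in null cells, and the fitted log2 fold change was 0.59 ± 0.14 (SE), with an adjusted p of 0.000161. With a coarser clustering it was 0.25 and not called (adjusted p = 0.0737). Its order was the reverse in cluster 9, where wild-type cells had 22.9 and 22.8 CPM and null cells 36.2 and 31.1 CPM. That difference did not pass (log2 fold change -0.45 ± 0.21, adjusted p = 0.0683), although the litter-paired fit called it (adjusted p = 0.0331). *Mettl14* thus came down from its cluster 7 level in both genotypes, and the null libraries were lower than wild type in cluster 8 and higher in cluster 9.

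*Mettl3* in cluster 9 was 25.4 and 17.2 CPM in wild-type cells but 15.4 and 12.02 CPM in null cells, from 123 and 179 against 17 and 22 UMIs. Its log2 fold change was 0.72 ± 0.28 (SE, adjusted p = 0.0256), and the lower wild-type library was close to the higher null one. Fewer than 25% of null cells can hold these UMIs, so *Mettl3* passed the detection filter through wild type only, where it was higher. With no detection filter it was still called. It was no longer called without *Meioc*-null replicate 2 (adjusted p = 0.215), by DESeq2 (adjusted p = 0.116) or with total counts in place of TMM factors (adjusted p = 0.0653). The third subunit, *Wtap*, was called in cluster 8, where wild-type cells had 69.8 and 67.8 CPM and null cells 102 and 75.5 CPM, and the fitted log2 fold change was -0.35 ± 0.12 (SE) with an adjusted p of 0.0136. In cluster 7 the order was the same, at 89.2 and 82.3 against 118 and 96.1 CPM, and the adjusted p was 0.0999 (0.00897 in the litter-paired fit). In cluster 9 the fitted *Wtap* difference had the other sign, 0.20 ± 0.15, and was not called (adjusted p = 0.261).

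*Alkbh5* was called in cluster 8, where wild-type cells had 205 and 191 CPM and null cells 259 and 219 CPM (log2 fold change -0.27 ± 0.11, adjusted p = 0.035). In cluster 7 it had been higher in both wild-type libraries, 313 and 303 against 285 and 261 CPM, but the fitted difference of 0.24 ± 0.10 was not called (adjusted p = 0.0853) and was called in the litter-paired fit (adjusted p = 0.00466). From cluster 7 to cluster 8, *Alkbh5* went down in all 4 libraries, and whether the drop differed by genotype was not tested. *Fto* was tested in cluster 7 and not called there, with 40.2 and 32.7 CPM in wild-type cells and 39.1 and 28.2 CPM in null cells. *Ythdf1* and *Ythdc1* were called in no cluster, and for *Ythdc1* in cluster 9, at 345 and 380.3 against 440.4 and 440.3 CPM, the adjusted p was 0.219 (0.0376 in the litter-paired fit). With total counts in place of TMM factors 7 members were called over all clusters, with *Mettl3* in cluster 9 lost and *Ythdc1* (-0.28, adjusted p = 0.0267) and *Mettl14* (-0.55, adjusted p = 0.0443) in cluster 9 gained.

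Leaving out single libraries changed some of these calls. *Ythdf2* in cluster 9, *Ythdf3* in cluster 7 and *Mettl14* in cluster 8 were called whichever library was left out. The cluster 8 calls of *Wtap* and *Alkbh5* were lost when wild-type replicate 1 was left out, and likewise without wild-type replicate 2 or without *Meioc*-null replicate 1, with adjusted p of 0.0572 to 0.381 for *Wtap* and 0.127 to 0.240 for *Alkbh5*. The log2 fold change itself shrank without *Meioc*-null replicate 1, to -0.16 for *Wtap* and -0.18 for *Alkbh5*, and without a wild-type library it was -0.33 and -0.38 for *Wtap* and -0.28 and -0.26 for *Alkbh5*. Both calls were also lost by DESeq2 (0.100 for *Wtap* and 0.0977 for *Alkbh5*) and with no detection filter (0.0699 and 0.265), and that of *Alkbh5* with no doublet removal (0.0542) and with a coarser clustering (-0.11, adjusted p = 0.392). Without wild-type replicate 1 the count of member calls over all clusters went from 6 to 3, with these 2 calls lost and *Mettl3* in cluster 9 not tested. The litter-paired fit called 11 in place of 6, the same 6 and the 5 named above with their paired values. Over all genes that fit also called more, 997 in place of 236 of 6019 in cluster 6, 3433 in place of 1974 of 5871 in cluster 7 and 4841 in place of 4381 of 6968 in cluster 9.

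Other measures moved with genotype in the same clusters. In cluster 7 the summed level of the 7 differentiating spermatogonia markers was 657 and 591 CPM for wild-type but 746 and 694 CPM for null cells, that of the 8 pachytene markers was 220.2 and 180.1 against 161 and 162 CPM, and median depth per cell was 10863 and 10236 against 11362.5 and 13045 UMIs. The differentiating spermatogonia sum in cluster 8 was 246 and 225 CPM for wild-type but 623 and 588 CPM for null cells, the pachytene sum there was 603 and 492 against 328 and 344 CPM and median depth 10125 and 9623 against 11419.5 and 13914 UMIs. In cluster 9 the differentiating spermatogonia sum was 229 and 215 CPM against 1069.8 and 982 CPM. The pachytene sum in cluster 9 was 931 and 803 CPM for wild-type but 207 and 225 CPM for null cells. All 7 differentiating spermatogonia markers and 7 of the 8 pachytene markers were detected in each library of cluster 9. This count does not tell clusters apart, since 7 or 8 of the 8 pachytene markers were detected in cluster 1 too. Median depth per cell in cluster 9 was 14237 and 13503 UMIs for wild-type but 16473 and 18156 for null cells. The sum of the 8 early spermatocyte markers in cluster 7 was 3988 and 3882 CPM against 4252 and 4274 CPM in null cells. In cluster 8 it was 5121 and 4696 against 6401 and 6139 CPM. In cluster 9 the groups overlapped, at 5373 and 4763 against 5656 and 4872.5 CPM. The part of these differences in the values of *Ythdf2*, *Ythdf3*, *Mettl3*, *Mettl14*, *Wtap* and *Alkbh5* was not tested.

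Somatic cells gave no member a call. In Sertoli-like cells none of 7 tested members was called (0.206% of genes), nor in peritubular myoid-like cells (0.0762%) or in the *Dcn*, *Mgp* and *Col1a2* cluster (0.0226%). DESeq2 called none of them either, and none had an unadjusted p under 0.05 in these 3 clusters. *Mettl3* and *Mettl14* were detected in too few somatic cells to be tested.

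The difference of the genotype effect between stages was then tested within mice. It was the mean log2 fold change over clusters 7 to 9 minus that over clusters 1 to 6. Clusters of 1 pup entered as separate values, so the SE and p-values do not measure the spread between pups alone. The difference was called for 4 of the 9 members, against 61.7% of the 9816 genes tested. *Ythdf2* had the largest difference, 0.50 ± 0.05 (SE, adjusted p = 1e-10), with within-batch values of 0.42 and 0.37. *Ythdf3* went the other way, at -0.19 ± 0.07 (adjusted p = 0.0231; within batches -0.22 and -0.32). *Mettl3* was at 0.25 ± 0.11 (adjusted p = 0.0448; within batches 0.18 and 0.13). *Ythdf1*, which was called in no single cluster, was at 0.14 ± 0.05 (adjusted p = 0.0178), while its within-batch values, from CPM, were 0.000939 and 0.07. *Ythdf2* was called whichever library was left out. *Ythdf3* lost the call without wild-type replicate 1 (adjusted p = 0.162) or *Meioc*-null replicate 2 (0.428), as did *Mettl3* (0.364 and 0.512), and the difference shrank to -0.15 and -0.10 for *Ythdf3* and to 0.14 and 0.13 for *Mettl3*. *Ythdf1* lost it without wild-type replicate 2 (0.09, adjusted p = 0.259), *Meioc*-null replicate 1 (0.14, adjusted p = 0.0857) or *Meioc*-null replicate 2 (0.15, adjusted p = 0.0962). *Fto* gained one without *Meioc*-null replicate 1 (0.44, adjusted p = 0.0105) and with no doublet removal (0.25, adjusted p = 0.0275). For *Mettl14*, *Wtap*, *Ythdc1*, *Alkbh5* and *Fto* the difference was not called, with adjusted p from 0.100 to 0.752. The scaling mattered here: with total counts in place of TMM factors, *Ythdf2* was at 0.40, *Ythdf3* at -0.29 and *Mettl3* and *Ythdf1* were no longer called, while *Ythdc1* (-0.12) and *Wtap* (-0.17) were. Over all genes, the called differences split into 3193 higher and 2868 lower with TMM and into 2462 higher and 3524 lower with total counts.

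**Figure D4:**
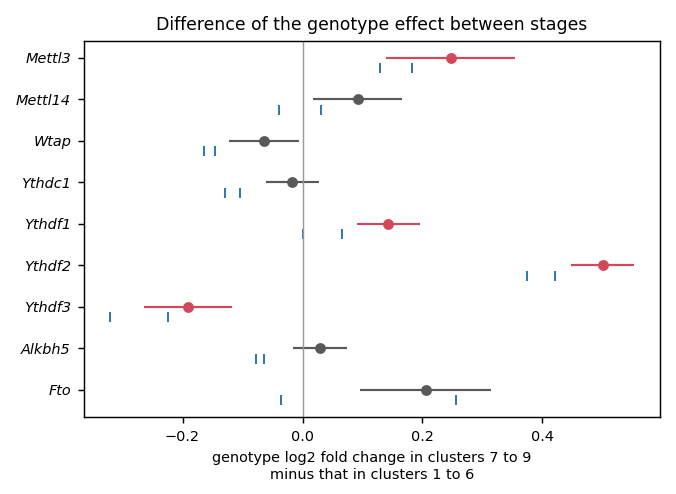
Difference of the genotype log2 fold change (wild type over *Meioc*-null) between clusters 7 to 9 and clusters 1 to 6 for each member, with bars of 1 SE and red points for called genes. Blue ticks are the same difference computed from CPM within each batch. *Ythdf2* stands at 0.50, beyond every other member, and *Ythdf3* is the lowest at -0.19.

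The 3 cytoplasmic readers can also be followed as shares of their summed UMIs, where the share of a gene also moves when either of the others does, and 1 gene is followed over clusters and genotypes rather than ranked against the others. *Ythdf2* made up 29.5% and 29.1% of these UMIs in wild-type cluster 1 and 56.3% (95% Wilson interval 53.8 to 58.7) and 57.4% (55.6 to 59.1) in wild-type cluster 9. In *Meioc*-null cluster 9 it made up 38.7% (33.1 to 44.7) and 42.2% (37.7 to 46.8), so the intervals of the 2 genotypes were well apart. These intervals cover counting error only. The mean gap between genotypes was 16.4 percentage points in cluster 9, 5.87 in cluster 7, 2.14 in cluster 8 and at most 1.93 in clusters 1 to 6. The share of *Ythdf3* in cluster 7 was 12.1% and 12.3% for wild-type but 19.2% and 18.03% for null cells, and in cluster 9 it was 13.3% and 12.3% against 20.3% and 22.3%. The share of *Ythdf1* was 55.0% and 56.0% in wild-type cluster 1 and 30.4% and 30.3% in wild-type cluster 9, while its own level was 99.8 and 96.4 CPM in the first and 100.8 and 90.4 CPM in the second. An exact permutation test of 2 against 2 libraries cannot go below a two-sided p of 0.333, so no p is given for the shares.

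**Figure D5:**
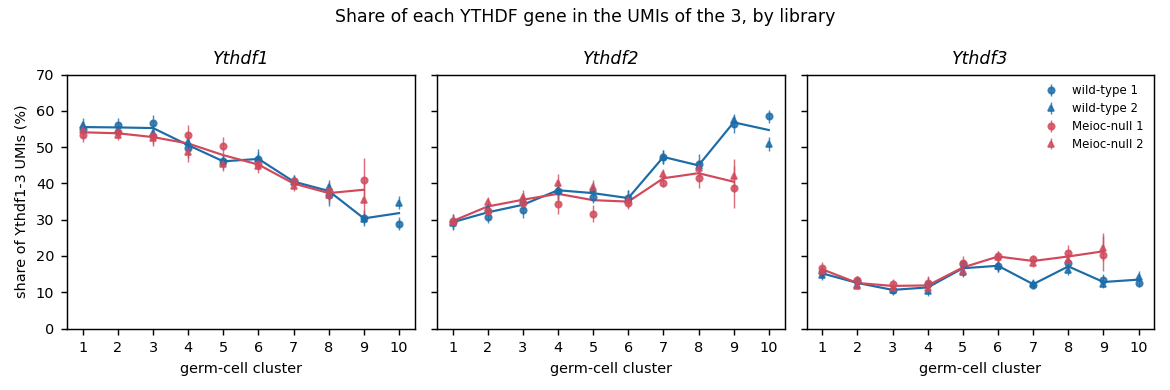
Share (%) of each YTHDF gene in the summed UMIs of *Ythdf1*, *Ythdf2* and *Ythdf3* in germ-cell clusters 1 to 10. Points are single libraries with 95% Wilson intervals and lines are means per genotype. The *Ythdf2* lines are already apart in cluster 7, at 47.3% and 47.3% against 40.2% and 42.7%, and are farthest apart in cluster 9, where wild type stands at 56.3% and 57.4% and *Meioc*-null at 38.7% and 42.2%.

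A wider list of 17 m6A genes (other writer partners, methyltransferases and readers) was described in the same fits. None was called in clusters 1 to 6 or in somatic clusters, 3 of 14 tested were called in cluster 7 (33.6% of all genes), all lower in wild type, 7 of 15 in cluster 8 (56.8%), 3 higher and 4 lower, and 8 of 16 in cluster 9 (62.9%), 5 higher and 3 lower. *Igf2bp1* and *Igf2bp3*, readers of the IGF2BP family known to stabilise mRNA, were among them: in cluster 8 the log2 fold change of *Igf2bp1* was -1.93 ± 0.16 (SE) at an adjusted p of 2.59e-17, with mean levels of 16.1 CPM for wild-type and 63.0 CPM for null cells. At 0.171 UMIs per wild-type cell there, *Igf2bp1* passed the detection filter of 25% of cells through null cells only, where it was higher. *Igf2bp3* in cluster 8 was at -1.28 ± 0.14, from 26.7 against 64.2 CPM. It too was higher in null cells, and whether it passed the filter through null cells only is not given here. In cluster 9, *Prrc2a*, a reader, was higher in wild type by 0.91 ± 0.12 on the log2 scale and *Hnrnpa2b1*, a nuclear RNA-binding reader, by 0.90 ± 0.16. *Rbm15b*, a partner that guides the writer complex, was higher there by 0.79 ± 0.24, and *Fmr1*, an RNA-binding translational regulator, was lower, at -0.82 ± 0.14. In cluster 8 *Hnrnpa2b1* had the opposite order, at -0.43 ± 0.15. The stage difference was called for *Igf2bp1* (-1.10), *Igf2bp3* (-0.46), *Prrc2a* (0.53), *Mettl5* (0.44), *Ythdc2* (0.37), *Rbm15b* (0.26), *Pcif1* (0.23), *Virma* (0.16) and *Zc3h13* (0.13). It was not called for the rest of this list, where 61.7% of all genes tested were called.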

How the data were processed

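Single-cell suspensions were run on the Chromium 3′ v3.1 platform. The authors made the deposited matrices of UMI counts per gene and barcode with Cell Ranger 4.0.0 on the mm10 reference package (GRCm38), per the submitters' processing notes and the study's methods. All values here start from these raw counts. The authors' cell clusters were not used here.

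Barcodes were kept with over 1000 genes and under 10% mitochondrial UMIs. In each library Scrublet (in scanpy 1.11.5) scored doublets, and the highest-scoring 690 to 996 barcodes, a number set by the barcodes in the file, were removed. Wild-type cells were clustered after centring by batch (20 neighbours, leidenalg 0.10.2, Python 3.11.15) on variable genes from which the m6A genes, *Meioc*, cell-cycle and mitochondrial genes were left out, and clusters were named "-like" from marker lists. Other cells took the cluster of their nearest wild-type cells. Counts were summed per cluster and library, and clusters with at least 50 cells in each of the 4 libraries were tested with edgeR 4.0.16 (R 4.3.3; TMM factors, quasi-likelihood, Benjamini-Hochberg adjustment within a cluster) over genes with a UMI in 25% of the cells of either genotype. DESeq2 1.42.0 was an alternative. The genotype test in clusters 1, 7 and 9 and the stage test were tested on simulated data. The range over stages, shares and likeness are descriptions (pseudocount of 1 CPM for logs, scipy 1.17.1 for tests and intervals).

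The extract protocol in the labels gives each batch as a littermate pair, so replicate numbers pair the libraries. The gene-wise difference between the wild-type libraries correlated with that between the *Meioc*-null libraries at r = 0.184 (Sertoli-like) to r = 0.655 (cluster 5). Each genotype had 2 libraries from separate pups, and the p-values of the tests within clusters measure the spread between these. The stage test treats the clusters of 1 pup as separate values, so its p-values do not measure the spread between pups alone. Files held 11986 to 16486 barcodes and 158291903 to 190455307 UMIs per library.

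The members, the wider list and the comparisons were chosen with earlier results of these data known. All 9 members were described. Of the wider list the 6 genes with the largest absolute change among those called within clusters were named, and all those called in the stage test. For 1 writer, reader and eraser, those with the widest range in CPM, the 3 most similar genes were named. Alternatives covered normalization, filters, doublets, clustering, the replicate block, left-out libraries and, chosen after the data were seen, total counts in place of TMM.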

Additional observations from a re-analysis of the deposited data

Results flagged for a closer look

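In 4 of the 9 members the effect of genotype (wild type over *Meioc*-null, log2) differed between stages by edgeR's test of the difference itself. The stages were the early spermatocyte-like clusters 7 to 9 and the spermatogonia-like clusters 1 to 6. The difference was 0.50 for *Ythdf2* (adjusted p = 1e-10, n = 2 libraries per genotype), 0.25 for *Mettl3* (adjusted p = 0.0448), 0.14 for *Ythdf1* (adjusted p = 0.0178) and -0.19 for *Ythdf3* (adjusted p = 0.0231). Clusters of 1 mouse share that mouse, so these p-values do not measure the spread between mice alone. Of all genes tested, 61.7% were called in the same way. The difference for *Ythdf2* was positive in both litters, 0.42 and 0.37, and was called under each of the 9 alternatives run. None of these 9 changed the clustering, so the border between clusters 6 and 7 was not varied. *Mettl3* and *Ythdf1* were called under 4 of the 9 and *Ythdf3* under 6.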

How the results depend on the processing

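Among the 6 member calls by genotype, *Ythdf2* in cluster 9 was called under all 13 alternatives and *Ythdf3* in cluster 7 under all but a Bonferroni correction. The member count of 6 became 3 with DESeq2, 1 with a Bonferroni correction over genes and clusters, and 11 with the replicate block, which pairs littermates; it ranged from 3 to 5 when 1 library was left out. The count of 4 stage differences became 1 with no filter on detection, stayed at 4 with the replicate block, and ranged from 1 to 4 with 1 library left out. With a mitochondrial limit of 5%, 3 members spanned over 2-fold, but over only 4 clusters, the stage difference was not run and clusters 7, 8 and 9, which hold all 6 calls, could not be fitted. With a coarser clustering (at least 8 clusters) *Mettl14* in cluster 8 was not called (adjusted p = 0.0737). In that clustering 64.6% of the wild-type cells of cluster 7 fell in a cluster that was left unnamed. No call reversed in 1399 comparisons, 34 weakened and 11 became called. The block changed no other member call.

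Both genotypes had 2 libraries, so that a permutation test cannot pass 0.05, and cluster 9 held 65 and 95 *Meioc*-null cells, where *Mettl3* had 17 and 22 UMIs. *Fto* was under the detection filter there. Clusters were built on wild-type cells, and how far a null cell matches its cluster was described by markers only.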
